A study of Mus musculus with 3 samples.

Results

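Protamines and transition proteins package DNA in the sperm head. As spermatids elongate, the histones of their chromatin give way first to the transition proteins encoded by Tnp1 and Tnp2 and then to the arginine-rich protamines encoded by Prm1 and Prm2. In mouse spermatids these mRNAs are made early, held untranslated in ribonucleoprotein particles, and translated later, when transcription has shut down. They are therefore textbook examples of delayed translation. Prm3 lies in the same gene cluster and encodes an acidic protein that is not known to package DNA. The members were named by symbol, with Ensembl gene IDs given for 4 of the 5 genes, and all 4 IDs were found among the 22183 IDs of the deposited tables. No table used here pairs Prm3 with an Ensembl ID, so Prm3 has no values below.

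Footprint libraries from mouse testis were compared, 2 from the genotype TSCL1_Lnc_KO (KO1 and KO2), which lacks the long noncoding RNA TSCL1, and 1 from TSCL1_WT (WT). According to the study's title, TSCL1 acts on the translation of its targets together with PIWIL1, a PIWI-family protein of male germ cells. The labels give no strain, age or number of animals, do not say how the allele was made, and do not say whether KO1 and KO2 came from separate animals, so the spread between them may be technical. They speak of nuclei and of poly(A) selection alongside nuclease-protected fragments, so how closely a count here reflects ribosomes on an mRNA is not settled.

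KO1 held 19827686 counts, KO2 31667845 and WT 13126663. KO2 differed in makeup from both others: its 5 most counted IDs over all libraries held 9.59% of its counts, against 25.9% in KO1 and 23.0% in WT, and 0 of these 5 were members. The deleted RNA and the marker genes of other testis cell types carry no names in the tables, so neither the genotype labels nor the cell makeup was checked through them. The members themselves mark spermatids. Among all IDs ranked by raw count, the 4 members stood between rank 19 (Tnp1) and rank 96 (Prm1) in KO1, between 29 (Tnp1) and 161 (Prm1) in KO2, and between 23 (Prm2) and 82 (Prm1) in WT. In bulk tissue, fewer spermatids and less RNA per spermatid cannot be told apart. All of the libraries are footprint libraries, so mRNA level and translation per mRNA cannot be told apart either.

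In the RefSeq annotation of GRCm38.p6, Prm1, Prm2, Prm3 and Tnp2 lie side by side on chromosome 16, all on the minus strand, within 8889 bp. Prm1 (ENSMUSG00000022501) spans chr16:10796332-10796823, Prm2 (ENSMUSG00000038015) chr16:10791377-10792105, Prm3 chr16:10790508-10790914 and Tnp2 (ENSMUSG00000043050) chr16:10787935-10788655. Tnp1 (ENSMUSG00000026182) lies apart on chromosome 1, at chr1:73015074-73015899, also on the minus strand. None of these spans overlapped another RefSeq gene (0 overlaps for each of the 5). The nearest gene to Tnp1, 1700027A15Rik, begins 136 bp away.

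The promoters of the 4 measured members are shown so that the sequence in front of each gene can be read beside its values below. Each line is the 150 bases before the RefSeq start of the gene, 5′ to 3′ on the minus strand of GRCm38.p6, with capitals for matches to a cAMP response element with free middle bases (TGANNTCA) or to the TATA box letters (TATAAA, either strand). In spermatids, CREM acts through elements of this kind.
Tnp1, chr1:73015900-73016049: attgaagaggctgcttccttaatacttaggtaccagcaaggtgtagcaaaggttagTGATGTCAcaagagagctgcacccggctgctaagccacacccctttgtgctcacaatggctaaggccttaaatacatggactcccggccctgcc
Tnp2, chr16:10788656-10788805: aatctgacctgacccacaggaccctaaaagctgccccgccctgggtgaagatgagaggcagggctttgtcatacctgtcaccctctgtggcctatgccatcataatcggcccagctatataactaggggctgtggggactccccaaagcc
Prm1, chr16:10796824-10796973: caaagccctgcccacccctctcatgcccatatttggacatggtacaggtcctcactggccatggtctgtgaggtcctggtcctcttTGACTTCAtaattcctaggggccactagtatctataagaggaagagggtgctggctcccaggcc
Prm2, chr16:10792106-10792255: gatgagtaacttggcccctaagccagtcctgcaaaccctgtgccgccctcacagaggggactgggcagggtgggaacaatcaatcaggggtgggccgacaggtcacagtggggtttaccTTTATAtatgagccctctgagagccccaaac

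The element with free middle bases occurred in Tnp1 as TGATGTCA, 94 to 87 bases before the start, and in Prm1 as TGACTTCA, 64 to 57 bases before it. Prm3 held TGAGGTCA, 60 to 53 bases before its start. These letters were found in 3 of the 5 members' windows and in 8.37% of 32851 RefSeq promoter windows of the same length. The full element TGACGTCA was in 0 of the 5 and in 1.36% of all windows. TATAAA, read on the opposite strand as TTTATA, was in Prm2 alone, 31 to 26 bases before the start, and in 7.57% of all windows. Tnp2 held none of the 3 motifs as written. Only exact letters were counted, so near forms such as tatataa in Tnp2 and tataag in Prm1 were left out. The matches thus did not divide the genes into transition proteins and protamines: 1 gene of each pair held the element with free middle bases. A match is a string of letters and not a shown binding site.

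The comparison asked how the footprint level of each gene differed between knockout and wild-type testis. The transition protein genes lay above WT in both knockout libraries, by 1.16-fold to 1.66-fold. Prm1 stood at 1.04-fold (KO1) and 0.983-fold (KO2) of WT and Prm2 at 1.13-fold and 1.04-fold. None of the 4 differences passed the test across all IDs. Levels are given as CPM, the counts scaled to the effective library size (the total count adjusted by the trimmed mean of M values, TMM).

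Tnp1 encodes the first of the pair of proteins that bridge histones and protamines. KO1 held 42049 counts of it (2229 CPM), KO2 77024 (2408 CPM) and WT 24261 (1776 CPM). Both knockout libraries were above WT, KO1 by 1.25-fold and KO2 by 1.36-fold, and under TMM they differed from each other by 1.08-fold. With library totals alone, the log2 difference was 0.198 for KO1 minus WT and likewise 0.198 for KO2 minus KO1. The knockout mean was 2318 ± 127 CPM (SD, n = 2) against 1776 CPM in WT, and the fitted log2 fold change was 0.38 ± 0.72 (SE). In edgeR's quasi-likelihood test the adjusted p was 1.00.

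Tnp2 encodes the second transition protein, a zinc-binding basic protein. Its counts were 25050 in KO1 (1328 CPM), 61072 in KO2 (1909 CPM) and 15682 in WT (1148 CPM). KO2 stood apart, 1.66-fold above WT and 1.44-fold above KO1, while KO1 was 1.16-fold above WT. The knockout mean was 1619 ± 411 CPM (SD, n = 2) against 1148 CPM in WT. KO1 was thus closer to WT than to KO2. The fitted log2 fold change was 0.50 ± 0.69 (SE), with an edgeR adjusted p of 1.00.

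Prm1 encodes the protamine that mammals share. KO1 held 12382 of its counts (656 CPM), KO2 19894 (622 CPM) and WT 8638 (632 CPM). WT lay between the knockout libraries. The knockout mean was 639 ± 24.3 CPM (SD, n = 2) against 632 CPM in WT. The fitted log2 fold change of 0.02 ± 0.58 (SE; edgeR adjusted p of 1.00) has no settled sign, as it became -0.07 with library totals alone.

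Prm2 encodes a protamine made as a longer precursor that is trimmed on the chromatin. Its counts were 38270 in KO1 (2029 CPM), 59677 in KO2 (1866 CPM) and 24609 in WT (1802 CPM). Both knockout libraries were above WT, by 1.13-fold in KO1 and 1.04-fold in KO2, and KO2 was closer to WT than to KO1. The knockout mean was 1947 ± 115 CPM (SD, n = 2) against 1802 CPM in WT. The fitted log2 fold change was 0.11 ± 0.70 (SE; edgeR adjusted p of 1.00), and it fell below 0, to -0.05, when the 5 most counted IDs were left out of the library totals.

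**Figure D1:**
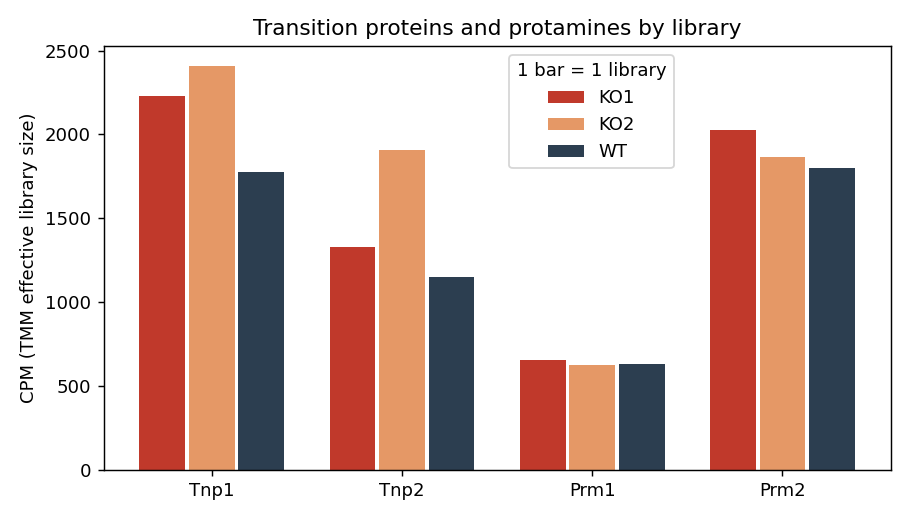
Level of the 4 measured genes in CPM (vertical axis, from 0) in KO1, KO2 and WT, with 1 bar for each library and therefore no error bars. Tnp1 was higher in both knockout libraries (2229 and 2408 CPM) than in WT (1776 CPM), Tnp2 was highest in KO2 (1909 CPM), and the Prm1 bars were nearly level (622 to 656 CPM).

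In the edgeR test 0 of the 4 members passed an adjusted p of 0.05, against a background of 0.0987% of 16208 tested IDs (16 IDs). Of these, 10 were higher in knockout (0.0617% of tested IDs) and 6 lower (0.037%). Unadjusted p-values under 0.05 numbered 254 over all IDs and 0 among the members, whose smallest was 0.485 for Tnp2. DESeq2 also called 0 members, with 13 IDs called in all. The members' median fitted log2 fold change was 0.25, and that of all tested IDs 0.01. Under TMM both knockout libraries lay above WT in 3 of the 4 members, a position taken by 29.8% of tested IDs. With totals that leave out the 5 most counted IDs it was 2 of the 4, but the share of all IDs was not counted there. That scaling moved the median log2 difference of all tested IDs to -0.07 for KO1 minus WT and -0.29 for KO2 minus WT. The 2 counts are therefore not like for like. The narrower pattern, with the knockout libraries also nearer to each other than either was to WT, was seen under TMM for Tnp1 only, and in 9.42% of tested IDs. It did not hold for Tnp1 with library totals without the members. There the log2 differences were 0.1989 for KO1 minus WT and 0.1991 for KO2 minus KO1. The fit has 1 residual degree of freedom per gene, from KO1 against KO2, and edgeR shares its estimate of spread over the tested IDs. The standard errors are therefore not the KO1 to KO2 spread of each gene. Tnp1 had the largest (0.72) with a KO2 minus KO1 log2 difference of 0.11, and Tnp2 had 0.69 with 0.52. At 0.58 to 0.72 on the log2 scale, the standard errors are larger than each of the 4 fitted log2 fold changes.

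The differences were also placed among those of other well counted genes. Among 11138 IDs averaging 100 or more counts, 93.7% had a lower KO1 minus WT difference than Tnp1, and 85.2% a lower one than Tnp2. For KO2 minus WT the shares were 75.2% for Tnp1 and 85.7% for Tnp2. Of the protamines, Prm1 was nearer the middle for KO1 minus WT, with 60.8% of IDs below it. Prm2, with 80.8% below it, was close to Tnp2 there. For KO2 minus WT both protamines were near the middle, with 47.3% below Prm1 and 52.1% below Prm2. Tnp1 was thus the member farthest out in KO1 and Tnp2 the member farthest out in KO2. The typical absolute log2 difference over these IDs was 0.13 for KO1 minus WT and 0.40 for KO2 minus WT, so a given difference was rarer in KO1. For KO1 minus WT, 13.2% of IDs had a larger absolute difference than Tnp1, and for KO2 minus WT 23.4% had a larger one than Tnp2.

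**Figure D2:**
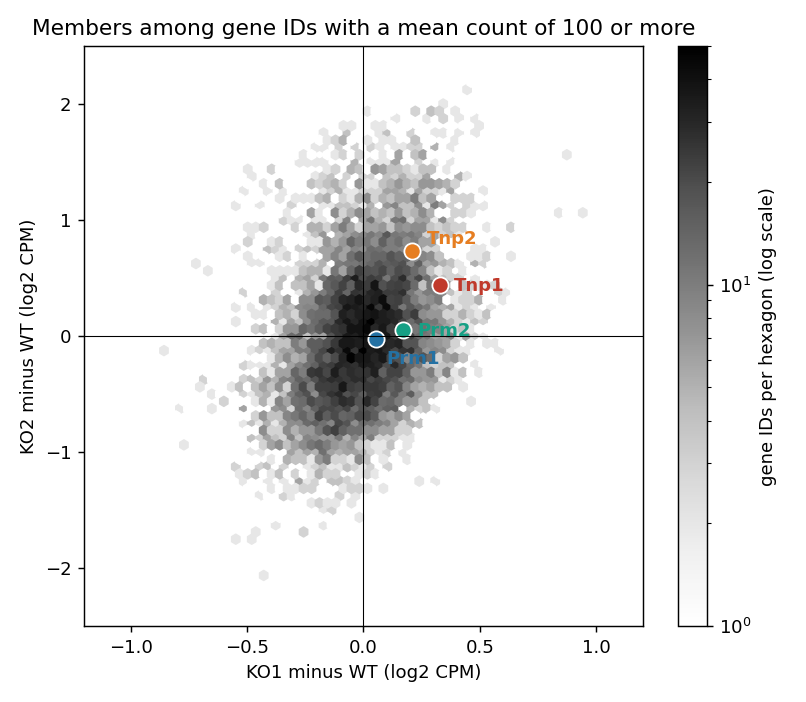
Log2 CPM difference KO1 minus WT (horizontal axis) against KO2 minus WT (vertical axis) for the 11138 IDs averaging 100 or more counts, as hexagons shaded by the number of IDs on a log scale, with 51 IDs outside the plotted range; the coloured points are the 4 members. Tnp1 (0.33 and 0.44) and Tnp2 (0.21 and 0.73) lie right of and above the centre of the cloud, and Prm1 (0.05 and -0.02) and Prm2 (0.17 and 0.05) lie close to the horizontal line.

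How far a gene lay from WT depended on what the libraries were scaled to. With library totals alone the median difference of all tested IDs was -0.13 for KO1 minus WT and -0.07 for KO2 minus WT. With totals that leave out the 5 most counted IDs, a setting added after the data were seen, it was -0.07 and -0.29. Taken relative to the median of all tested IDs under TMM, Tnp1 was 0.33 higher in KO1 and 0.46 higher in KO2 than in WT on the log2 scale, and Tnp2 was 0.21 and 0.76 higher. Prm2 was 0.17 and 0.07 higher, while Prm1 was 0.06 higher in KO1 and at -0.0008 in KO2. Across the 6 scalings, without subtracting the median, Tnp1 and Tnp2 lay above WT in both knockout libraries each time. These are not 6 separate checks, since the deposited FPKM use library totals and leaving out the members barely moves those totals. For Tnp1, KO1 minus WT was 0.198 with library totals, 0.198 with FPKM and 0.199 without the members. The smallest differences were 0.17 for Tnp1 (KO2) and 0.08 for Tnp2 (KO1). Prm1 changed sign between scalings in KO1, and Prm2 did so in KO2.

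**Figure D3:**
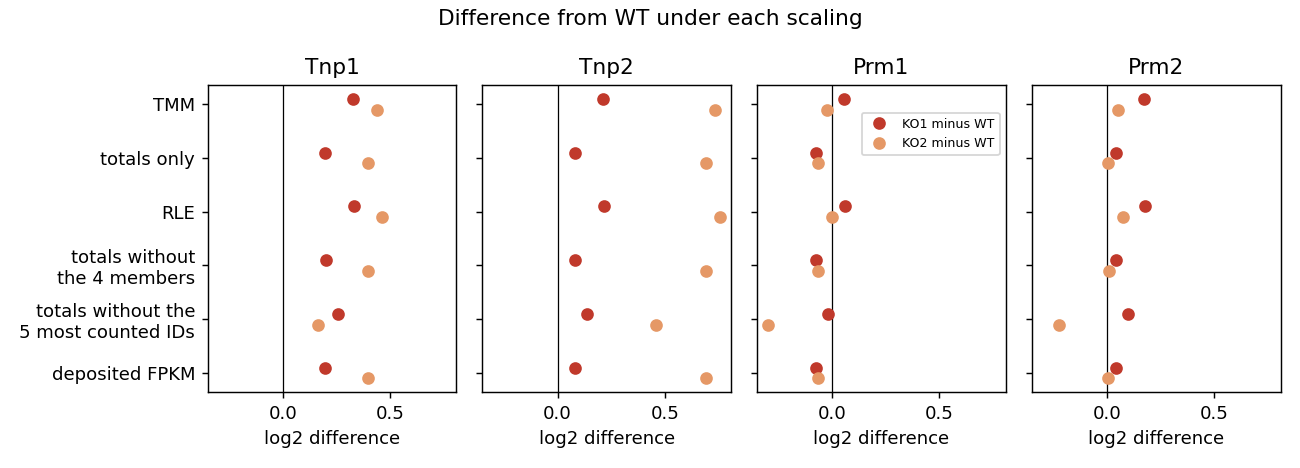
Log2 difference from WT (horizontal axis) of KO1 and KO2 for each gene under 6 scalings of the libraries (rows), where RLE stands for relative log expression factors and the last row uses log2(FPKM + 1). Points of Tnp1 and Tnp2 lie right of 0 in every row, whereas Prm1 crosses 0 between rows in KO1 and Prm2 does so in KO2, at -0.22 with totals without the 5 most counted IDs.

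Ratios between members inside a library do not depend on its scaling. All 4 ratios of a transition protein gene to a protamine gene were higher in KO1 and in KO2 than in WT, and each was highest in KO2. The ratio of Tnp1 to Prm1 counts was 3.40 in KO1 (95% exact counting interval 3.33 to 3.46) and 3.87 in KO2 (3.81 to 3.93), against 2.81 in WT (2.74 to 2.88). For Tnp1 to Prm2 the ratio was 1.10 in KO1 and 1.29 in KO2, against 0.986 in WT.

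Relative to WT, the ratios of Tnp2 to each protamine were raised less than those of Tnp1 in KO1 and more in KO2. The ratio of Tnp2 to Prm2 was 0.655 in KO1 (0.644 to 0.665) and 1.02 in KO2 (1.01 to 1.04), against 0.637 in WT (0.625 to 0.650). The intervals of KO1 and WT overlap, and KO2 was 1.61 times WT. Its ratio to Prm1 was 2.02 in KO1 and 3.07 in KO2, against 1.82 in WT. Tnp2 to Tnp1 was 0.596 in KO1 and 0.793 in KO2, against 0.646 in WT, so that the knockout libraries lay on either side of WT.

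In KO2 the ratio between the protamines was nearer to WT than the other ratios were. In KO1 it was not: it stood at 1.08 times WT, against 1.03 times for Tnp2 to Prm2. Prm2 to Prm1 was 3.09 in KO1 (3.03 to 3.15) and 3.00 in KO2 (2.95 to 3.05), against 2.85 in WT (2.78 to 2.92). Neither knockout interval overlapped that of WT. The knockout mean of 3.05 ± 0.0644 (SD, n = 2) was 1.05 to 1.08 times WT in the separate libraries. These 6 ratios share 4 genes and are not independent of each other. The ratios are given as a description and were not tested. With 2 libraries against 1, the smallest p of an exact two-sided permutation test would be 0.333. The intervals take in counting error only, and reads copied by PCR would make them too narrow even for that.

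**Figure D4:**
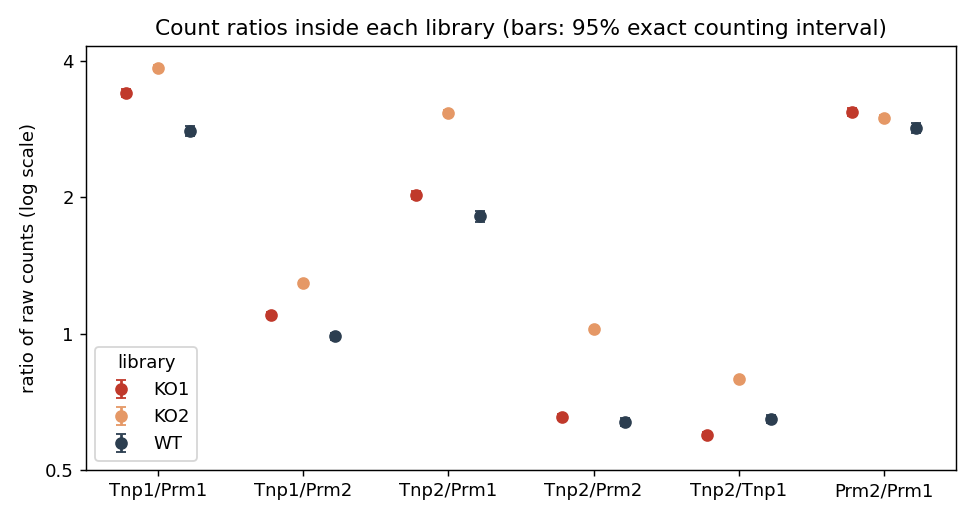
Ratio of raw counts between members inside each library (vertical log axis), with bars for the 95% exact counting interval, which are often smaller than the point. The 4 ratios of Tnp1 or Tnp2 to a protamine are highest in KO2 and lowest in WT, while Prm2/Prm1 runs only from 2.85 to 3.09.

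Summed over the pair, Tnp1 and Tnp2 took 0.338% of all counts in KO1 (95% exact binomial interval 0.336 to 0.341) and 0.436% in KO2 (0.434 to 0.438), against 0.304% in WT (0.301 to 0.307). Prm1 and Prm2 took 0.255% in KO1 (0.253 to 0.258), 0.251% in KO2 (0.250 to 0.253) and 0.253% in WT (0.251 to 0.256). These intervals cover counting error only, and the shares refer to raw totals. Scaled by TMM, the protamine sum was 2685 CPM in KO1 and 2488 CPM in KO2, against 2434 CPM in WT, and the transition protein sum was 3557 CPM in KO1 and 4317 CPM in KO2, against 2924 CPM in WT. On both scales the transition protein sum was highest in KO2. Together the 4 genes took 0.594% in KO1, 0.687% in KO2 and 0.558% in WT.

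Levels of different genes can be set side by side only per length, and for this the deposited FPKM (fragments per kilobase, scaled to library depth) were used. Tnp1 was the most abundant member, with 10765 FPKM in KO1, 12346 in KO2 and 9382 in WT. Prm2 followed with 5468, 5338 and 5311 FPKM. Prm1 had 3376 FPKM in KO1, 3396 in KO2 and 3557 in WT, and Tnp2 had 3299, 5035 and 3119. The order of the last pair differed: Tnp2 was below Prm1 in KO1 and in WT and above it in KO2.

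The order between genes also rests on the length used. For these members the FPKM equal the count divided by the library total and by 1 whole length, 197 bp for Tnp1, 383 bp for Tnp2, 185 bp for Prm1 and 353 bp for Prm2. The FPKM are therefore no second measurement of these genes. All 4 lengths are shorter than the RefSeq gene spans, which include introns, of 826, 721, 492 and 729 bp. Per kilobase of the gene span in WT, Tnp1 had 29372 counts, Tnp2 21750, Prm1 17557 and Prm2 33757, so that Prm2 and not Tnp1 came first. Comparisons of one gene between libraries do not change with its length.

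Other IDs with a like pattern over the 3 libraries were counted. Among 11134 other IDs averaging 100 or more counts, those within 0.1 of a member in both log2 differences from WT numbered 514 for Prm1, 335 for Prm2, 100 for Tnp1 and 143 for Tnp2. The IDs nearest to the mean of the 4 members were ENSMUSG00000019564, at a distance of 0.0075, and ENSMUSG00000027597, at 0.010. That mean, at 0.19 for KO1 minus WT and 0.30 for KO2 minus WT, is not the position of any single member. Both IDs were picked from these same data for differences of that size. That neither passed the edgeR test is therefore no further result.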

How the data were processed

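The authors deposited raw counts per Ensembl gene ID for 3 testis libraries and FPKM for the same IDs. Reads were processed with HISAT2 and featureCounts on GRCm38, per the submitters' processing notes. Tool versions, annotation and strand handling are not given in the sources. Counts were tested over the whole table using R 4.3.3 and edgeR 4.0.16 (quasi-likelihood F-test after filterByExpr and TMM, without robust fitting, genotype as the only term, Benjamini-Hochberg over 16208 IDs, threshold 0.05). Standard errors were the fold change divided by the root of F. Log2 CPM used a prior count of 2. The script was tested on simulated data with larger changes than those of the members. That check does not cover differences of their size. Alternatives were DESeq2 1.42.0, other scalings, no filter, and FPKM tested with limma 3.58.1 after log2, with pseudocounts of 1 and 0.1. Shares and ratios carry exact Clopper-Pearson intervals (scipy 1.17.1). Depth was 13126663 to 31667845 counts. Members and lists were chosen with earlier results of these data known. The rule for named genes took the members, matched genes of the lists, and the IDs nearest in pattern (up to 2 without names). The 5 gene lists and the cell type markers could not be matched (0 IDs in the Ensembl column of the RefSeq table) and were not tested. Promoters and coordinates are from RefSeq, GRCm38.p6, matched by symbol for 5 of 5 genes.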

Additional observations from a re-analysis of the deposited data

How the results depend on the processing

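No paired analysis was possible because there is only 1 WT library, whose label carries no replicate number. Over 9 alternative tests per gene, Tnp1 (0.21 to 0.40) and Tnp2 (0.31 to 0.51) kept a positive log2 fold change and no member passed the threshold (lowest adjusted p 0.920, Prm1 in limma). Prm1 turned negative in 6 of 9, at -0.0712 with library totals and in the 3 limma fits on FPKM, -0.0700 with totals without the members and -0.152 without the 5 most counted IDs. Prm2 turned negative in 1, at -0.0536 without the 5 most counted IDs. All of these change the scaling, since the FPKM use library totals. With 1 knockout library left out, a value with no test, Prm1 ran from -0.0241 to 0.0536, Prm2 from 0.05 to 0.17, Tnp1 from 0.33 to 0.44 and Tnp2 from 0.21 (KO2 left out) to 0.73 (KO1 left out). The log2 ratio of Tnp2 to Tnp1, knockout minus WT, ran from -0.12 without KO2 to 0.29 without KO1, and that of Tnp2 to Prm2 from 0.04 to 0.68. The members' summed share was 0.0830 percentage points higher in knockout than in WT, or 0.328 as a share of the FPKM sum, which weights short genes more. The difference in count share ran from 0.0363 without KO2 to 0.130 without KO1. Against 16 calls over all IDs, 63 were made with no filter, 43 without the 5 most counted IDs (chosen after seeing the data; the cause was not tested) and 0 by limma on log2(FPKM + 1), with 1347 at an unadjusted p under 0.05. DESeq2 called 13.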

Other observations

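The lengths behind the deposited FPKM followed a pattern beyond the members. Of 2386 IDs with at least 1000 counts in every library and an FPKM of at least 1, 851 had FPKM that 1 length gave in all 3 libraries within 0.1%. In 533 of them that length was whole within 0.05 bp. Divided by 3, these lengths left a remainder of 2 in 526 IDs (98.7%), as did the 4 lengths of Prm1, Prm2, Tnp1 and Tnp2. No label or header says what the lengths measure. The deposited FPKM are rounded, so IDs outside these tolerances were not shown to have been made in another way.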
